A study of Homo sapiens with 14 samples.

Results

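The knockdown of IFI16 was examined in 6 of the 14 samples of the series: 3 RNA-seq libraries with the short hairpin RNA shIFI16 and 3 with the comparison hairpin labelled shNC. All 6 came from U251MG, an established human glioblastoma line of astrocytic origin, and all carried the same irradiation history of 30 daily X-ray fractions of 2 Gy, 60 Gy in sum, after which the cells are labelled radioresistant. Both hairpin groups thus differ from unirradiated U251MG in the same way, and the only labelled difference between them is the hairpin. A second RNA table of the series held 3 control and 3 radioresistant libraries without a hairpin, and 2 further samples were ATAC-seq libraries, which were not used here. The members were chosen by table and label: every library of the hairpin table entered, and the comparison was fitted inside that table. Its columns bear codes, of which URN was read as shNC and URS as shIFI16. This reading was inferred from the codes, and IFI16 itself went with it.

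Limits of the model follow from the labels. They do not say how many hairpin sequences shIFI16 stands for, name no re-expression of the gene, and do not say whether the hairpin cells were a pool or a clone. Loss of IFI16, off-target effects of the hairpin and other differences between the cell populations therefore cannot be told apart. Replicates are not described as separate cultures, so p-values measure the spread between libraries, which may be technical. The values are TPM (transcripts per 1000000, a level scaled for gene length and library total), whose sequencing depth is unknown. A fall in TPM in a bulk culture cannot separate fewer cells of a type from less RNA per cell.

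IFI16 belongs to the PYHIN family, proteins that pair a pyrin domain with DNA-binding HIN domains. It binds double-stranded DNA in the nucleus and cytoplasm, acts with cGAS and STING in the induction of interferons and NF-kB target genes, and has long been linked to p53, RB and growth arrest in cultured cells. Glioblastoma cells are often ordered along proneural and mesenchymal expression states, the latter with inflammatory, matrix and wound-response genes. Programmes other than interferon and NF-kB are described here by role: cell cycle, lysosome, growth-factor signalling, matrix, lipid and oxygen metabolism, stress responses and lineage markers.

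The target gene, IFI16 (chromosome 1, 158999976 to 159055151, GRCh38.p14), was measured at 125, 139.6 and 127 TPM with shNC against 7.68, 7.9 and 6.71 TPM with shIFI16. Every shIFI16 library lay far below every shNC library, and the gene fell by 3.97 on the log2 scale (SE 0.0883, adjusted p = 4.4e-14). Of the other PYHIN genes, AIM2, a cytoplasmic DNA sensor of the inflammasome, stayed below 1 TPM in all 6 libraries (0.132 to 0.952 TPM), and MNDA and PYHIN1 were listed at 0 throughout. IFI16 was thus the only PYHIN gene at a level that could be tested in these cells.

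A level of 1 TPM was reached in 3 or more of the 6 libraries by 12567 genes, and of these 4140 (32.9%) passed an adjusted p of 0.05 (limma on log2(TPM + 1), Benjamini-Hochberg), 2088 (16.6%) higher and 2052 (16.3%) lower in shIFI16. These shares are the background for the count in each gene list. The number higher was 1318 without shIFI16 replicate 2. Most differences were small: 309 genes (2.46%) also changed at least 2-fold, 160 (1.27%) upward and 149 (1.19%) downward, and the median log2 difference of all tested genes was 0.02. In 5626 genes (44.8%) the ranges of the groups did not overlap. Libraries had 12380 to 12605 genes at 1 TPM or more, small RNA genes took 1.46% to 3.41% of the total, and Pearson's r of log2 values across genes was 0.99 to 0.993 within and 0.975 to 0.979 between the hairpin groups. Genes are not independent replicates. All log2 differences are shIFI16 minus shNC on the log2(TPM + 1) scale, on which a weakly expressed gene shows less than its full change, and "rose" and "fell" are used only of genes past the threshold.

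**Figure D1:**
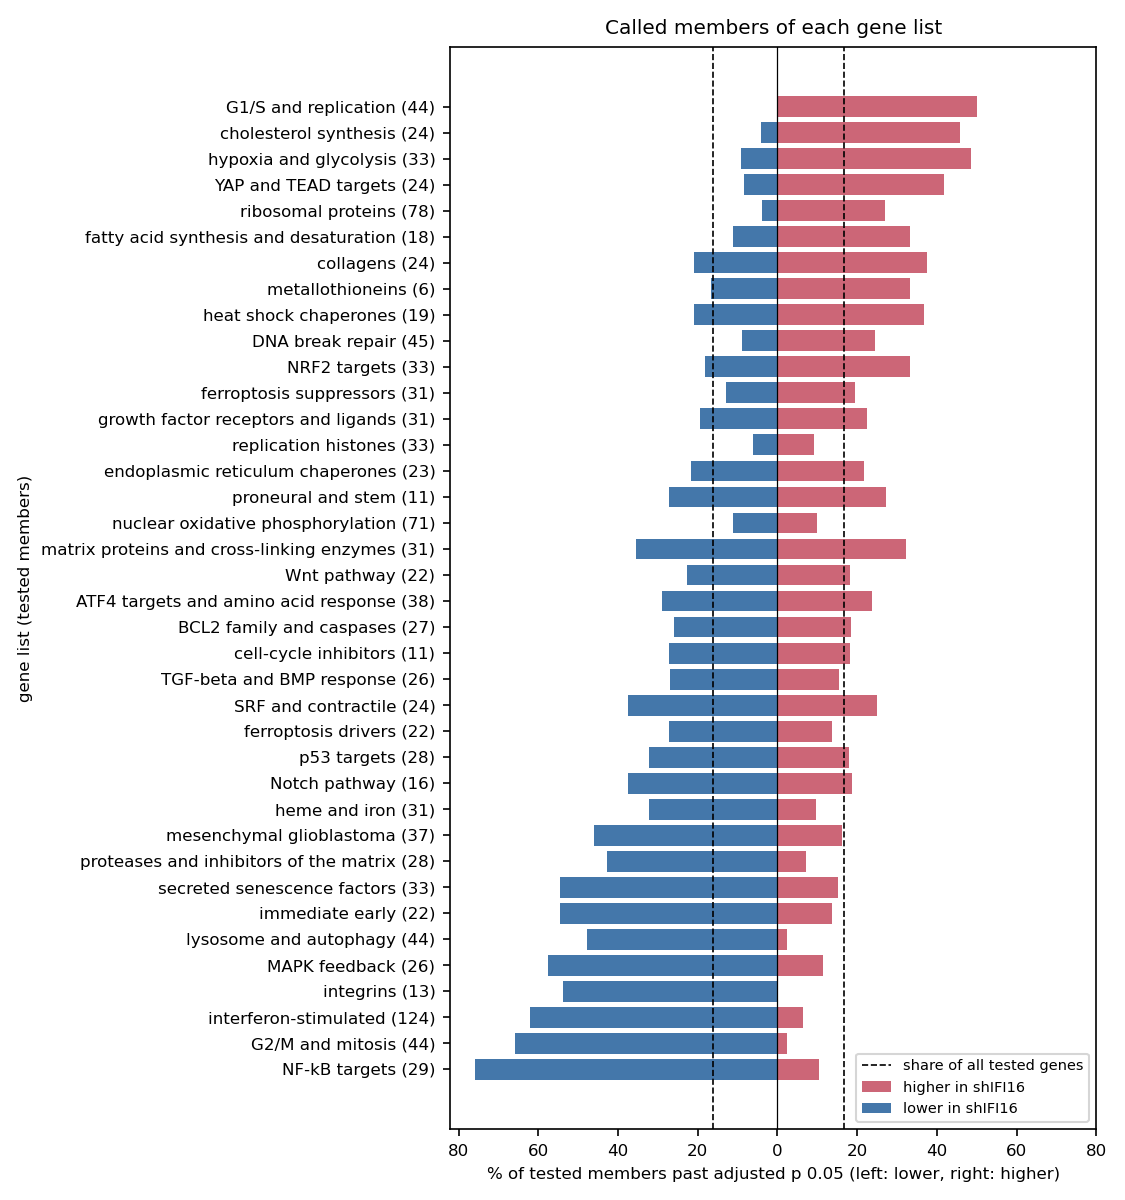
Share of the tested members of each gene list that passed an adjusted p of 0.05, higher in shIFI16 to the right and lower to the left, with the number of tested members in parentheses. Dashed lines mark the shares over all tested genes, 16.6% higher and 16.3% lower; G1/S genes had 50% higher and 0% lower, and G2/M genes 2.27% higher and 65.9% lower.

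Interferon and NF-kB genes, the best known outputs of DNA sensing, are given briefly. Of 124 tested interferon-stimulated genes 77 fell and 8 rose (median -0.41), and of 29 tested NF-kB targets 22 fell and 3 rose (median -0.73). Of these 29, 5 had a group mean under 1 TPM and needed the other group to pass the filter. With a filter of 5 TPM, 16 of 21 NF-kB targets fell and 3 rose. OASL, an OAS-like antiviral protein, fell by 1.08 and the lysosomal thiol reductase gene IFI30 by 1.35. Among the NF-kB targets the mitochondrial superoxide dismutase gene SOD2 fell by 1.06 and TNFAIP3, which encodes the inhibitor A20, by 1.36. The 3 rises of the NF-kB list became 1 without shNC replicate 2, without shIFI16 replicate 2 and with no filter. Requiring a 2-fold change, a mean of 2 TPM and no overlap of the groups left 239 genes, 107 higher and 132 lower, of which 3 and 21 were members of these 2 lists. The largest rises and falls described next were taken from these genes, so their groups do not overlap by choice.

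Among the 15 largest rises outside these lists, GFAP, the intermediate filament of astrocytes (chromosome 17, 44903159 to 44915500), was measured at 1.75, 2.06 and 1.37 TPM with shNC against 33, 30.2 and 30.1 TPM with shIFI16, a log2 difference of 3.56 (SE 0.116, adjusted p = 3.6e-12). SCG2, a granin of secretory granules, stood at 17.6, 18 and 18.6 TPM with shNC against 143, 135 and 149 TPM with shIFI16 (log2 difference 2.91, SE 0.0746, adjusted p = 2.1e-13). KRT8, a keratin of simple epithelia with many processed copies in the genome, stood at 12.6, 11.6 and 12.8 TPM with shNC against 88.2, 92.5 and 92.8 TPM with shIFI16 (log2 difference 2.79, SE 0.0815, adjusted p = 1.1e-12). In each of these genes the hairpin groups were separated by a wide gap, and the 3 libraries of a group lay close together.

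Among the other rises, BEX1, a small brain-expressed X-linked protein, stood at 17.6, 27.1 and 20.3 TPM with shNC against 132, 159 and 175 TPM with shIFI16 (log2 difference 2.80, SE 0.168, adjusted p = 1.7e-05). PRSS35, an inactive serine protease, stood at 4.47, 3.92 and 4.15 TPM with shNC against 32.6, 35.4 and 31.6 TPM with shIFI16, a log2 difference of 2.72. MAGEA12 and CSAG1, cancer-testis genes of the X chromosome, rose by 3.29 and 2.42, and both have close relatives whose reads may not have been told apart. MAGEA12 stood at 1.32, 0.831 and 0.933 TPM with shNC, so it needed the shIFI16 libraries to pass the filter. CSAG1 had the largest standard error of the 15 (log2 difference 2.42, SE 0.264, adjusted p = 6.4e-04), with 1.81, 3.41 and 4.77 TPM with shNC against 18.2, 23.7 and 22.1 TPM with shIFI16. EHF, an epithelial ETS transcription factor, rose by 2.43, and SUSD2, a membrane protein with a sushi domain, by 2.43. The shNC libraries of CSAG1 and BEX1 were spread widely.

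The remaining rises started from very low levels. HEPH, the copper-dependent ferroxidase hephaestin, stood at 0.54, 0.42 and 0.375 TPM with shNC against 13, 12 and 11.7 TPM with shIFI16 (3.19). LINC01234 (a long non-coding RNA), CACNG4 (an AMPA receptor auxiliary subunit), BGN (the matrix proteoglycan biglycan), SCUBE3 (a secreted glycoprotein) and SPARCL1 (the matrix protein hevin) rose by 2.82, 2.38, 2.32, 2.29 and 2.29. Their shNC means were 0.366 ± 0.119, 0.207 ± 0.114, 0.589 ± 0.244, 0.116 ± 0.0415 and 0.59 ± 0.361 TPM (± SD, n = 3). These 5 and HEPH had a mean below 1 TPM in shNC and entered the test only through the shIFI16 libraries, so their direction was fixed by the filter.

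Among the 15 largest falls, NCEH1, a neutral cholesterol ester hydrolase (chromosome 3, 172630249 to 172711067), was measured at 109.7, 116 and 103 TPM with shNC against 19.1, 18.1 and 16.4 TPM with shIFI16, and fell by 2.55 (SE 0.0831, adjusted p = 3.6e-12). SPP1, which encodes the secreted phosphoprotein osteopontin (chromosome 4, 87975714 to 87983411), was measured at 379, 421 and 411 TPM with shNC against 115, 114 and 118 TPM with shIFI16, and fell by 1.79 (SE 0.061, adjusted p = 5.9e-12). GPNMB, a glycoprotein of lysosomes and melanosomes, stood at 48.6, 50.6 and 48.4 TPM with shNC against 9.18, 9.03 and 8.88 TPM with shIFI16 (log2 difference -2.32, SE 0.0864, adjusted p = 1.7e-11). SPP1 had the highest level of the 30 genes, and in these 3 genes no shIFI16 library came near a shNC library.

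CCNA1, a cyclin A best known from the male germ line, stood at 50.4, 51.3 and 49.9 TPM with shNC against 12.3, 14.2 and 12.7 TPM with shIFI16 (log2 difference -1.87, SE 0.0875, adjusted p = 3.9e-10). LPXN, the focal-adhesion protein leupaxin, stood at 39.9, 46.2 and 41.4 TPM with shNC against 11.4, 10.8 and 11.9 TPM with shIFI16 (log2 difference -1.81, SE 0.0926, adjusted p = 9.7e-10). CD82, a tetraspanin known as a metastasis suppressor, stood at 36.1, 31.4 and 31 TPM with shNC against 9.13, 7.33 and 6.82 TPM with shIFI16 (log2 difference -1.95, SE 0.112, adjusted p = 3.6e-09). Log2 differences were -2.07 for BATF, a bZIP transcription factor of immune cells, and -1.93 for MAB21L1, a gene of eye development. They were -2.24 for PLEKHA6, -1.95 for TMEM71 and -2.02 for EVI2A. PLEKHA6, BATF and EVI2A each had a shIFI16 library below 1 TPM, so they needed the shNC libraries to pass the filter.

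The last falls were less simple. CES1, a carboxylesterase, fell by 1.88, but its shIFI16 mean was 0.324 ± 0.199 TPM (± SD, n = 3) and only the shNC libraries took it past the filter. LOC100131289 was listed at 0 in all 3 shIFI16 libraries and at 4.88, 4.53 and 3.54 TPM in shNC, for which no fold is given. LINC01605, a long non-coding RNA, stood at 21.2, 19.5 and 18.4 TPM with shNC against 1.12, 1.83 and 6.67 TPM with shIFI16, so 1 shIFI16 library was several times higher than the other two. Its adjusted p was 0.032, and over 13 alternative settings it ranged from 6.7e-12 to 0.11. The call was lost in 6 of the 13: with the replicate block, without each shNC library in turn, and without shIFI16 replicate 1 or 2.

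**Figure D2:**
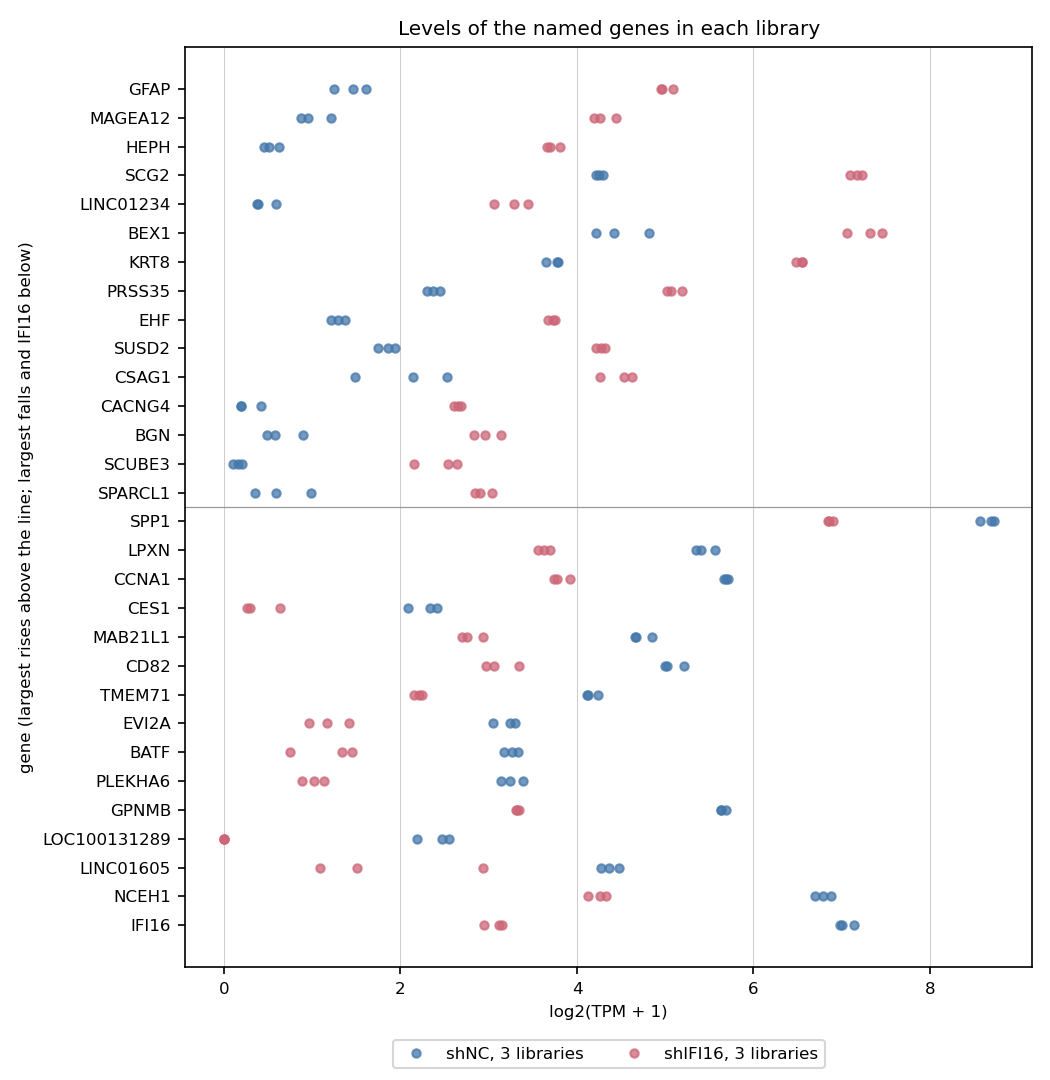
Level of IFI16 and of 29 of the 30 genes with the largest rises and falls outside the interferon and NF-kB lists, as log2(TPM + 1) on the horizontal axis; each point is 1 library, blue for shNC and red for shIFI16. The hairpin groups of each gene do not overlap, as the choice of genes required, and in LINC01605 1 of the 3 shIFI16 libraries lies apart from the others.

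Cell-cycle genes divided by phase. Of 44 tested genes of the G1/S transition and DNA replication, 22 rose and 0 fell (median 0.24), whereas of 44 tested genes of G2 and mitosis 29 fell and 1 rose (median -0.28). Changes were modest, from -0.14 to 0.71 in the first list and from -0.52 to 0.38 in the second. Summed over its members, the G1/S list went from 4054 to 4213 TPM in shNC to 4594 to 4842 TPM in shIFI16, and the G2/M list went from 11161 to 11871 TPM in shNC to 9317 to 9764 TPM in shIFI16, with no overlap of the groups in either sum. Leaving out a library in turn gave 17 to 25 rises in the first list, with 1 fall without shIFI16 replicate 1, and 23 to 31 falls in the second.

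E2F factors with RB-family repressors time the G1/S genes, and the DREAM complex with B-MYB and FOXM1 times many G2/M genes through an element called CHR (cell cycle genes homology region). Promoters from RefSeq (GRCh38.p14), the 250 bases before the annotated start, were searched on both strands for E2F letters (TTTCCCGC, TTTCGCGC or TTTGGCGC) and CHR letters (TTTGAA or TTTCGAA). E2F letters were in 16 of 39 matched G1/S promoters (41%) against 2.38% of 27305 promoters, and in 7 of the 18 matched promoters of genes that rose (38.9%). CHR letters were in 19 of 36 matched G2/M promoters (52.8%) against 14% of all, and in 13 of the 24 matched promoters of genes that fell (54.2%). In both lists the share among called genes was close to that of the whole list. A match describes letters and is not evidence of a bound site. To show them, 2 promoters that hold the letters are printed for each list, those of smallest p among the genes considered. Not every gene was considered, so in the G1/S list a gene of smaller p that holds the letters may be missing. The promoters run 5′ to 3′ on the strand of the gene, with only the letters of the gene's own list in capitals. E2F letters were also in 2 of the 24 matched promoters of G2/M genes that fell. The CENPA promoter holds the E2F letters TTTCCCGC, left in lower case.
MCM3 (chr6:52284743-52284992, minus strand): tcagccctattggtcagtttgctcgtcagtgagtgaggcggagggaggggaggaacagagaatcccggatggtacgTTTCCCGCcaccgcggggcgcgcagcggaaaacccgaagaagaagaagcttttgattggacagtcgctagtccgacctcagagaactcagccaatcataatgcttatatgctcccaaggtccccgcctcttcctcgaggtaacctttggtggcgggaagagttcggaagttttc
PCNA (chr20:5126623-5126872, minus strand): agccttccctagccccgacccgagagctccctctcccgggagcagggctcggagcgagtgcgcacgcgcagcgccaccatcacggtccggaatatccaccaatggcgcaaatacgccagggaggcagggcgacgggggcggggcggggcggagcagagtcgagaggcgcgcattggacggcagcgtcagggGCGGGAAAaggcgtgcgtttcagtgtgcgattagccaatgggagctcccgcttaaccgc
CENPA (chr2:26785806-26786055, plus strand): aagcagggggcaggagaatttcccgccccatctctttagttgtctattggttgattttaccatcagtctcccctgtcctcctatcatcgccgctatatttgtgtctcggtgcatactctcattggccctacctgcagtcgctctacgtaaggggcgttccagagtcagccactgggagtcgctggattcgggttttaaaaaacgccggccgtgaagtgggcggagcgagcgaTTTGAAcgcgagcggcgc
CDK1 (chr10:60778081-60778330, plus strand): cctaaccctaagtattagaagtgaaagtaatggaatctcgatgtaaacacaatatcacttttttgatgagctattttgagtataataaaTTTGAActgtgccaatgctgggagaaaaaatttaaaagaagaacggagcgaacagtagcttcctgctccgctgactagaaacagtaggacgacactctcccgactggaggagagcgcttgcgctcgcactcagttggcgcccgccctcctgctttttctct
The capitals end 167 and 52 bases before the start in MCM3 and PCNA, and 13 and 156 bases before it in CENPA and CDK1. MCM3, a subunit of the replicative helicase, stood at 136, 136 and 125 TPM with shNC against 184, 182 and 167 TPM with shIFI16 (log2 difference 0.42, SE 0.0657, adjusted p = 1.3e-04), and PCNA, the sliding clamp of the polymerases, at 296, 309 and 293 TPM with shNC against 367, 375 and 370.2 TPM with shIFI16 (log2 difference 0.31, SE 0.0561, adjusted p = 5.6e-04). CENPA, the histone H3 variant of the centromere, stood at 112, 107 and 109 TPM with shNC against 76.1, 76.5 and 75 TPM with shIFI16 (log2 difference -0.52, SE 0.0638, adjusted p = 1.3e-05), and CDK1, the kinase that starts mitosis, at 215, 232 and 223 TPM with shNC against 170.4, 162 and 163 TPM with shIFI16 (log2 difference -0.43, SE 0.0599, adjusted p = 4.4e-05). The first pair was higher and the second pair lower in every shIFI16 library than in any shNC library.

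Ordered by role, the G1/S rises were spread over the steps of replication. Of 10 origin-licensing genes 6 rose, of 6 genes of helicase activation 4 rose, and of 12 genes of the clamp, clamp loader and polymerases 7 rose. CDC6, which loads the helicase onto origins, rose by 0.48 (SE 0.0671, adjusted p = 5.1e-05) and the helicase subunit gene MCM4 by 0.47 (SE 0.0711, adjusted p = 9.4e-05). CCNE2, cyclin E2, which drives entry into S phase, stood at 29.8, 29.3 and 28.3 TPM with shNC against 51.2, 48.1 and 45.9 TPM with shIFI16, the largest difference of the list (log2 difference 0.71, SE 0.0799, adjusted p = 5.6e-06). Of 6 genes of nucleotide supply 2 rose. Of 5 genes of E2F, cyclin E and S-phase entry 2 rose, and of 5 of chromatin assembly and others 1 rose.

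The mitotic falls reached the cyclins, kinases, kinetochore and spindle. They comprised 6 of 8 genes of the mitotic cyclins, CDK1 and CDC25, 6 of 8 mitotic kinases, 5 of 6 kinetochore and centromere genes, and 11 of 14 genes of kinesins, spindle and cytokinesis. Of 4 checkpoint and anaphase genes 1 fell, UBE2C, the ubiquitin-conjugating enzyme of the anaphase-promoting complex, at -0.49 (SE 0.0595, adjusted p = 1.3e-05). CKS2, a CDK-binding subunit, fell by 0.43 (SE 0.0611, adjusted p = 5.1e-05). The single rise, named after its value was seen, was MYBL2, which encodes B-MYB, at 0.38 (SE 0.0653, adjusted p = 3.7e-04). None of the 4 genes in the group of regulators and chromosomes fell. These role groups were drawn up with results of these data known.

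**Figure D3:**
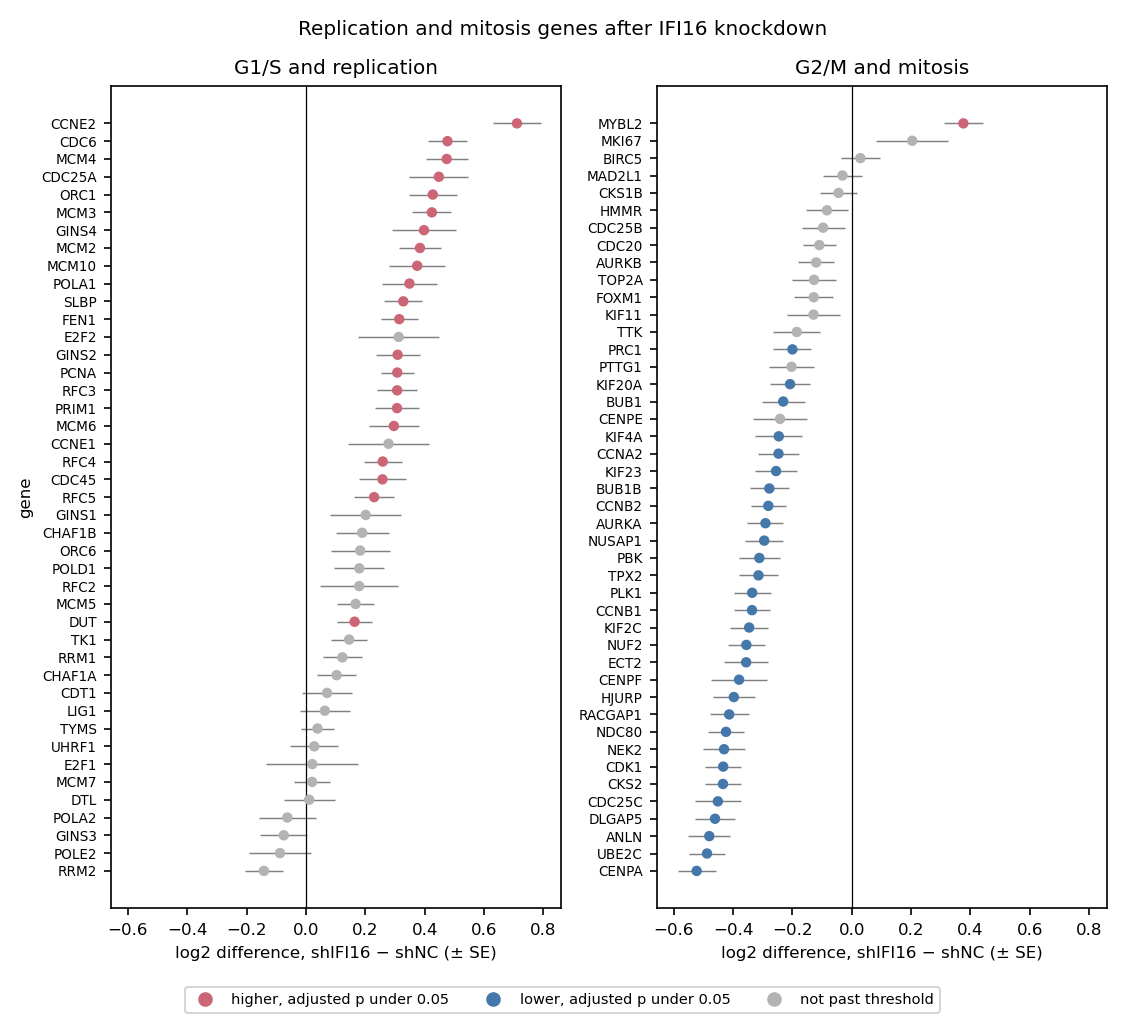
Log2 difference (shIFI16 minus shNC) with its standard error for 43 of the 44 tested genes of the G1/S list on the left and all 44 of the G2/M list on the right, coloured where the adjusted p was under 0.05. Of the 43 G1/S genes drawn 21 are coloured as higher and 0 as lower; of 44 G2/M genes 29 are coloured as lower and 1, MYBL2, as higher.

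Brakes on the cell cycle and damage-response genes gave mixed counts. Of 11 tested cell-cycle inhibitors 2 rose and 3 fell. CDKN1A (p21, a CDK inhibitor induced by p53) stood at 61.6, 62.6 and 54.8 TPM with shNC against 34.7, 34.7 and 28.8 TPM with shIFI16 (log2 difference -0.85, SE 0.0903, adjusted p = 3.1e-06), and CDKN2D (p19, an inhibitor of CDK4 and CDK6) at 68.2, 67.8 and 64.4 TPM with shNC against 28.7, 32.6 and 36.6 TPM with shIFI16 (log2 difference -1.02, SE 0.0885, adjusted p = 3.5e-07). BTG2, an antiproliferative p53 target that is also an immediate early gene, moved the other way, with 1.91, 2.02 and 1.95 TPM with shNC against 14.3, 12.9 and 11.5 TPM with shIFI16 (log2 difference 2.23, SE 0.118, adjusted p = 1.6e-09). TOB2, a relative of BTG2, fell by 0.56. Of 28 tested p53 targets 9 fell and 5 rose (median -0.11), which became 5 falls without shNC replicate 1 and a median of -0.02 without shIFI16 replicate 3. GDF15, a stress-induced cytokine, fell by 1.60 and PMAIP1 (NOXA, a pro-apoptotic BCL2 family member) by 0.94.

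DNA break repair genes had 11 rises and 4 falls among 45 tested (median 0.06). The median was 0.02 without shNC replicate 3 and 0.01, 0.09 and 0.11 without shIFI16 replicate 1, 2 and 3, and the rises became 5 without shNC replicate 3, 5 without shIFI16 replicate 2 and 7 with no filter. RPA1, which coats single-stranded DNA, rose by 0.44 (SE 0.0783, adjusted p = 4.8e-04) while its partner RPA3 fell by 0.42 (SE 0.084, adjusted p = 0.0011). XRCC2, a protein of homologous recombination, rose by 0.44, and CHEK2, a checkpoint kinase, fell by 0.33. In the BCL2 and caspase list 5 of 27 genes rose and 7 fell (4 without shNC replicate 1), close to the background. There BNIP3, a mitophagy receptor, rose by 0.74, and DFNA5 (gasdermin E) and BCL2L1 (BCL-XL) fell by 0.80 and 0.45.

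Lysosomal genes that passed the threshold were lower with 1 exception. Of 44 tested genes of lysosome and autophagy 21 fell and 1 rose (median -0.17), and 16 to 23 fell when a library was left out in turn. The sum over the list went from 6961 to 7005 TPM in shNC to 5739 to 5985 TPM in shIFI16, without overlap. By role, in groups also drawn up with results of these data known, 14 of 20 acid hydrolases fell and 1 rose, 3 of 6 membrane and transport genes fell, 3 of 10 autophagy factors fell, and of 5 subunits of the V-ATPase, the proton pump, 0 changed past the threshold. Beside GPNMB, CTSA, the protective protein of lysosomal sialidase and galactosidase, stood at 264, 252 and 269.6 TPM with shNC against 169.9, 171 and 164 TPM with shIFI16 (log2 difference -0.63, SE 0.0588, adjusted p = 7.4e-07). CTSD, the aspartic protease cathepsin D, stood at 619, 591 and 609 TPM with shNC against 408, 426 and 413 TPM with shIFI16 (log2 difference -0.54, SE 0.0556, adjusted p = 2.1e-06). MCOLN1, a calcium channel of the lysosomal membrane, stood at 54.5, 52.9 and 52.8 TPM with shNC against 30.5, 34.7 and 30.9 TPM with shIFI16 (log2 difference -0.72, SE 0.0800, adjusted p = 4.9e-06). All shIFI16 libraries were lower than all shNC libraries in these 3 genes. The rise, named after its value was seen, was GAA, acid alpha-glucosidase (log2 difference 0.41, SE 0.119, adjusted p = 0.015); without shNC replicate 1 or shIFI16 replicate 2 the list had 0 rises.

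TFEB-type factors read the letters TCACGTGA or GTCACGTG (called CLEAR) in promoters of lysosomal genes. They were found in 7 of 32 matched promoters of the list (21.9%) and in 4 of 15 of the genes that fell (26.7%), against 2.38% of all promoters. The promoter of CTSA, the gene of smallest p that holds them, has 3 overlapping or neighbouring matches, in capitals.
CTSA (chr20:45891085-45891334, plus strand): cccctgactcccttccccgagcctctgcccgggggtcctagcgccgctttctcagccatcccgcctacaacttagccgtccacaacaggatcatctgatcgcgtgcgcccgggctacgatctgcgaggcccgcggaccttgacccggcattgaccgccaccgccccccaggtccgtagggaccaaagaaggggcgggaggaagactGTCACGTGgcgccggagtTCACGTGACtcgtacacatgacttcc
Among the 3 transcription factor genes of the list, 1 fell. MITF, named after its value was seen, stood at 3.76, 4.57 and 3.5 TPM with shNC against 2.7, 2.04 and 2.33 TPM with shIFI16 (log2 difference -0.56, SE 0.135, adjusted p = 0.0049). Differences of the others, TFEB (0.24) and TFE3 (0.13), did not pass the threshold.

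Genes read as the mesenchymal glioblastoma state fell more often than they rose. Of 37 tested, 17 fell and 6 rose (median -0.17), with the sum going from 28164 to 29186 TPM in shNC to 20069.6 to 20496 TPM in shIFI16. IL13RA2, the decoy receptor of interleukin 13, stood at 534, 599.9 and 571 TPM with shNC against 240.0, 218 and 241 TPM with shIFI16 (log2 difference -1.28, SE 0.0642, adjusted p = 9.3e-10). LGALS1, the secreted lectin galectin-1, stood at 5610.1, 5979 and 6272 TPM with shNC against 3062, 3319 and 3529.6 TPM with shIFI16 (log2 difference -0.85, SE 0.0657, adjusted p = 8.8e-08). SNAI2 (SLUG), a transcription factor of epithelial-mesenchymal transition, stood at 12, 11.5 and 9.82 TPM with shNC against 3.07, 3.28 and 3.67 TPM with shIFI16 (log2 difference -1.48, SE 0.118, adjusted p = 1.3e-07). The list did not move as a block: CHI3L1 (YKL-40), often used as a marker of that state, stood at 2.02, 2.19 and 2.55 TPM with shNC against 8.32, 7.71 and 10.5 TPM with shIFI16 (log2 difference 1.59, SE 0.132, adjusted p = 2.0e-07). In the proneural and stem list 3 of 11 rose and 3 fell, the falls becoming 1 without shNC replicate 2. PDGFRA, the PDGF receptor that marks the proneural state, stood at 1.08, 1.14 and 1.02 TPM with shNC against 7.29, 5.96 and 5.41 TPM with shIFI16 (log2 difference 1.79, SE 0.134, adjusted p = 6.5e-08). MSI2, an RNA-binding protein of stem cells, rose by 0.57, while NES (nestin) and DLL3 (a Notch ligand) fell by 0.38 and 0.46. The call of DLL3 was lost without shNC replicate 1 or 2 and without shIFI16 replicate 2.

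Targets and feedback inhibitors of the ERK MAP kinase cascade were mostly lower. Of 26 tested, 15 fell and 3 rose (median -0.40), and 13 to 17 fell when a library was left out. DUSP6, the phosphatase that inactivates ERK, stood at 33.4, 34.4 and 33.1 TPM with shNC against 21.8, 21 and 20.4 TPM with shIFI16 (log2 difference -0.65, SE 0.0834, adjusted p = 2.1e-05). CCND1, cyclin D1, stood at 184, 179 and 158 TPM with shNC against 104, 99.6 and 95.6 TPM with shIFI16 (log2 difference -0.79, SE 0.0703, adjusted p = 4.5e-07). FOSL1 (FRA-1), an AP-1 subunit stabilised by ERK, stood at 287, 283 and 282 TPM with shNC against 166, 167 and 181 TPM with shIFI16 (log2 difference -0.73, SE 0.0592, adjusted p = 1.6e-07). PHLDA2, an imprinted gene with a pleckstrin domain, fell by 0.92 (SE 0.0663, adjusted p = 4.0e-08). In each of these the groups did not overlap.

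Immediate early genes, transcribed within minutes of a growth stimulus, had 12 falls and 3 rises among 22 tested (median -0.31). JUN fell by 0.68 (SE 0.0652, adjusted p = 1.1e-06) and IER2 by 0.69 (SE 0.066, adjusted p = 9.9e-07), while BTG2 rose. The falls numbered 8 to 12 when a library was left out.

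**Figure D4:**
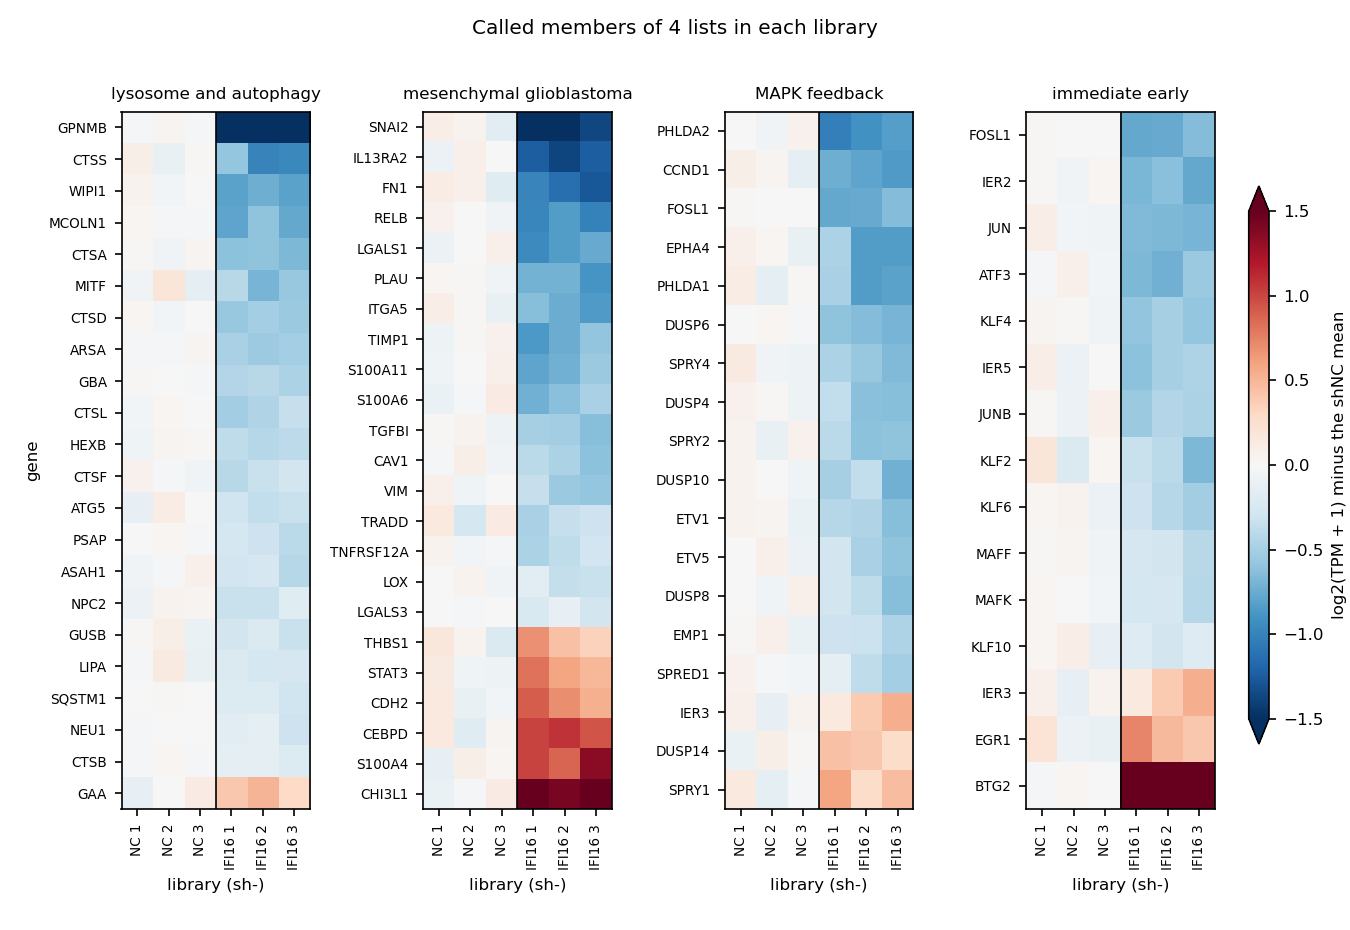
Members past the threshold in the lysosome, mesenchymal, MAPK feedback and immediate early lists, a row per gene and a column per library, coloured by log2(TPM + 1) minus the mean of the 3 shNC libraries. Colours saturate at 1.5 in either direction, so GPNMB, CHI3L1 and BTG2 differ by more than their colour shows; the 3 shIFI16 columns share a direction in each row.

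Receptors and ligands upstream of these pathways changed in both directions, 7 of 31 up and 6 down (median 0.10), with 4 up without shIFI16 replicate 1. Of the 31, 2 had a group mean under 1 TPM and needed the other group to pass the filter. The median had no steady sign: it was -0.01 and 0.05 without shIFI16 replicate 1 and 2, 0.03 and 0.01 without shNC replicate 2 and 3, -0.05 with a filter of 5 TPM and 0.03 with quantile normalization. ERBB2, an EGFR-family receptor, stood at 5.23, 4.98 and 4.24 TPM with shNC against 17.3, 17.1 and 15 TPM with shIFI16 (log2 difference 1.59, SE 0.111, adjusted p = 2.9e-08), and its family's ligand gene NRG1 rose by 0.93. PDGFA, a ligand of PDGFRA, stood at 48.4, 45.6 and 43.8 TPM with shNC against 23.9, 20.03 and 19.1 TPM with shIFI16 (log2 difference -1.10, SE 0.0947, adjusted p = 3.3e-07), opposite to its receptor. TGF-beta and BMP genes had 4 rises and 7 falls among 26, Wnt genes 4 and 5 among 22, and Notch genes 3 and 6 among 16. Without shIFI16 replicate 2 the rises were 2, 2 and 1 and the Wnt falls 3; the rises were also 2 without shNC replicate 2 for TGF-beta and BMP and without shIFI16 replicate 1 for Wnt. Of the 26 TGF-beta and BMP genes, 2 had a group mean under 1 TPM and needed the other group to pass the filter. TGFBR2, the TGF-beta type II receptor, fell by 1.24, and FSTL3, a secreted activin antagonist, fell by 1.55. The Wnt antagonist gene DKK1 fell by 0.82, the Wnt inhibitor gene APCDD1 rose by 1.21, and the Notch targets HES4 and HES1 fell by 0.80 and 0.44. APCDD1 passed the filter only through the shIFI16 libraries and went untested when any of them was left out. The direction of APCDD1 was thus fixed by the filter, and its size ranged from 1.09 to 3.01 over the alternatives that tested it.

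Of the integrins and matrix proteases that passed the threshold most were lower, and matrix proteins moved in both directions. Of 13 tested integrins 7 fell and 0 rose (median -0.28). ITGB5, a beta chain of vitronectin receptors, stood at 70.1, 68.1 and 66.3 TPM with shNC against 38.6, 35.7 and 29.8 TPM with shIFI16 (log2 difference -0.96, SE 0.0905, adjusted p = 8.4e-07). ITGA5, the alpha chain of the fibronectin receptor, stood at 158, 149.7 and 136 TPM with shNC against 94.1, 87.8 and 81.2 TPM with shIFI16 (log2 difference -0.75, SE 0.0743, adjusted p = 1.5e-06). ITGA6 and ITGA2, chains of laminin and collagen receptors, also fell (-0.63 and -1.13). Of 28 tested proteases and inhibitors of the matrix 12 fell and 2 rose (median -0.20). Of the 28, 2 had a group mean under 1 TPM and needed the other group to pass the filter. MMP14, the membrane-bound collagenase that activates MMP2, stood at 98.9, 95.5 and 92.6 TPM with shNC against 43.4, 43.3 and 36.8 TPM with shIFI16 (log2 difference -1.20, SE 0.0792, adjusted p = 1.8e-08), and MMP2 itself fell by 1.09. PLAU (urokinase) and TIMP1, an inhibitor of metalloproteases, fell by 0.77 and 0.73. The 2 rises became 1 without shIFI16 replicate 1 or 2.

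FN1, fibronectin, the ligand of ITGA5-containing integrins, stood at 190.1, 186 and 155 TPM with shNC against 88, 79.7 and 72.6 TPM with shIFI16 (log2 difference -1.13, SE 0.0879, adjusted p = 3.3e-07). It belongs to a list of 31 tested matrix proteins and cross-linking enzymes, 10 of which rose and 11 fell. Without shIFI16 replicate 2 these were 6 and 7. Of the 31, 3 had a group mean under 1 TPM and needed the other group to pass the filter. LTBP2, a latent TGF-beta binding protein, fell by 1.39. Of 24 tested collagens 9 rose and 5 fell (median 0.12, or 0.07 without shIFI16 replicate 1), the falls becoming 3 with no filter, without shNC replicate 1 or 2 and without shIFI16 replicate 2. The fibrillar COL11A1 stood at 4.09, 3.76 and 3.65 TPM with shNC against 19, 15.8 and 18 TPM with shIFI16 (log2 difference 1.94, SE 0.109, adjusted p = 2.9e-09), and COL14A1 and COL21A1, which bind to fibril surfaces, rose by 1.41 and 1.08. COL1A2, a chain of type I collagen, fell by 0.58.

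Targets of YAP and TEAD, the effectors of the Hippo pathway, were higher in 10 of 24 cases and lower in 2 (median 0.22). ANKRD1, a muscle ankyrin-repeat protein and standard YAP reporter, stood at 5.72, 6.4 and 5.17 TPM with shNC against 15.7, 14.5 and 18 TPM with shIFI16 (log2 difference 1.33, SE 0.114, adjusted p = 2.7e-07). CYR61 (CCN1) and AMOTL2 rose by 0.53 and 0.61, and NT5E (CD73), an ectonucleotidase, fell by 0.43. Contractile and SRF target genes had 6 rises and 9 falls among 24 (median 0.00 and of no steady sign under the scalings or with a library left out), and the falls became 5 with no filter and without shNC replicate 1 or 2. MYH10, non-muscle myosin IIB, rose by 1.10, and TRIP6 and FHL2, LIM-domain proteins, fell by 0.65 and 0.55. MYH10 passed the filter only through the shIFI16 libraries and went untested when any of them was left out. Its direction was thus fixed by the filter, and its size ranged from 0.97 to 2.21 over the alternatives that tested it.

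Cholesterol synthesis was higher at several steps. Of 24 tested genes 11 rose and 1 fell (median 0.20), 7 rising without shIFI16 replicate 2. SQLE, squalene epoxidase, stood at 54.1, 51 and 49.8 TPM with shNC against 96.9, 100.3 and 88.9 TPM with shIFI16 (log2 difference 0.87, SE 0.073, adjusted p = 2.3e-07). INSIG1, the sterol-regulated anchor of the SREBP processing complex, rose by 0.49. These differences stood beside the fall of NCEH1, which frees cholesterol from its stored esters. Fatty acid genes had 6 rises and 2 falls among 18: the elongases ELOVL6 and ELOVL2 rose by 0.57 and 0.76 and the desaturase SCD5 by 0.55. Sterol element letters (TCACNCCAC) were in 1 of 18 matched promoters of the cholesterol list and in 0.875% of all.

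HIF targets and glycolytic enzymes were higher in 16 of 33 cases and lower in 3 (median 0.17). EGLN3, an oxygen-dependent prolyl hydroxylase that is itself a HIF target, stood at 6.16, 7.86 and 7.59 TPM with shNC against 18.2, 16.9 and 16.7 TPM with shIFI16 (log2 difference 1.16, SE 0.109, adjusted p = 8.4e-07). NDRG1, a stress-responsive HIF target, stood at 36.3, 33.8 and 33 TPM with shNC against 63.6, 57.1 and 66 TPM with shIFI16 (log2 difference 0.84, SE 0.0813, adjusted p = 1.2e-06). CA9, carbonic anhydrase IX, rose by 0.68 (SE 0.0765, adjusted p = 5.7e-06) and BNIP3 by 0.74 (SE 0.066, adjusted p = 4.7e-07). The 3 falls, named after their values were seen, were P4HA1 and P4HA2, collagen prolyl hydroxylases, and LDHA, lactate dehydrogenase A, at -0.46, -0.32 and -0.37. The letters ACGTG, the core of the hypoxia element and also part of the CLEAR letters, were in 12 of 30 matched promoters of the list (40%), in 5 of 14 of the genes that rose (35.7%) and in 18.7% of all.

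Nuclear genes of oxidative phosphorylation were near the background or below it, with 7 rises and 8 falls among 71 (median -0.03, and -0.07 to 0.00 with each library left out in turn). Without shNC replicate 3 or shIFI16 replicate 2 these were 4 and 5, and without shNC replicate 1 the rises were 4. NDUFB9, a subunit of complex I, rose by 0.50 and NDUFA13, another, fell by 0.43. None of the 13 genes encoded by mitochondrial DNA was in the table. Ribosomal protein genes had 21 rises and 3 falls among 78 (median 0.09), but the rises were 8 with median-ratio scaling, 13 with no filter or without shNC replicate 1, and 12 without shIFI16 replicate 2. Reads of ribosomal protein genes, histones and metallothioneins may be split among near-identical copies. Replication histones had 3 rises and 2 falls among 33, counts that became 1 and 5 without shIFI16 replicate 3. Leaving out each shNC library in turn gave 1 fall. Of the 33 histone genes, 4 had a group mean under 1 TPM and needed the other group to pass the filter.

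Oxidative-stress genes did not follow a single direction. Of 33 tested NRF2 targets 11 rose and 6 fell (median 0.15). TKT, transketolase, an enzyme of the pentose phosphate pathway, stood at 1144, 1112 and 1119.7 TPM with shNC against 1640.2, 1686 and 1544 TPM with shIFI16 (log2 difference 0.53, SE 0.0573, adjusted p = 4.0e-06). AKR1C1, an aldo-keto reductase with close paralogues, stood at 12.5, 14.3 and 12.4 TPM with shNC against 7.43, 6.23 and 5.75 TPM with shIFI16 (log2 difference -0.92, SE 0.114, adjusted p = 1.6e-05), and CBR3, a carbonyl reductase, fell by 0.67. In heme and iron metabolism 10 of 31 fell and 3 rose. Falls included UROD, an enzyme of heme synthesis (log2 difference -0.57, SE 0.0589, adjusted p = 2.3e-06), and BLVRA and BLVRB, which reduce the biliverdin that heme oxygenase makes (log2 difference -0.55, SE 0.0767, adjusted p = 4.7e-05 and log2 difference -0.51, SE 0.0681, adjusted p = 3.3e-05). HMOX1, heme oxygenase 1, which the title of the series names, fell by 0.53.

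Ferroptosis, cell death by iron-dependent lipid peroxidation, was represented by suppressor and driver genes. Suppressors had 6 rises and 4 falls among 31, and drivers 3 rises and 6 falls among 22, shares near the background in most directions. GCH1, which starts the synthesis of the antioxidant tetrahydrobiopterin, stood at 46.1, 44.3 and 48.2 TPM with shNC against 25, 21.2 and 21.8 TPM with shIFI16 (log2 difference -0.999, SE 0.0876, adjusted p = 3.9e-07). SAT1, a polyamine acetyltransferase counted as a driver, stood at 125, 136 and 132 TPM with shNC against 63.4, 69.8 and 64.1 TPM with shIFI16 (log2 difference -0.98, SE 0.0686, adjusted p = 2.8e-08). TXNRD1, thioredoxin reductase 1, rose by 0.43, and KEAP1, the inhibitor of NRF2, fell by 0.48. Of 6 tested genes of the metallothionein list 2 rose, MT1F (1.12) and MT1E (0.86), and 1, MT2A, fell (-0.42).

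Protein-stress programmes changed in part. ATF4 targets and amino acid genes had 9 rises and 11 falls among 38. DDIT4 (REDD1, an inhibitor of mTORC1) stood at 32.4, 29.8 and 32.5 TPM with shNC against 78.6, 75.2 and 92.3 TPM with shIFI16 (log2 difference 1.35, SE 0.0861, adjusted p = 1.3e-08), the VLDL receptor gene VLDLR rose by 0.88 and STC2, a secreted glycoprotein, by 0.82, while GDF15 fell. Chaperones of the endoplasmic reticulum had 5 rises and 5 falls among 23: XBP1 and DNAJB9, both of the IRE1 branch of the unfolded protein response, fell by 0.50 and 0.55, and the lectin chaperone CANX rose by 0.39. Cytosolic and mitochondrial heat shock chaperones had 7 rises and 4 falls among 19, the rises becoming 4 without shNC replicate 3. HSPD1, HSP90AB1 and HSP90AA1 rose by 0.54, 0.48 and 0.48, and CHORDC1, an HSP90 co-chaperone, fell by 0.59.

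Secreted senescence factors, which overlap the NF-kB list, fell in 18 of 33 cases and rose in 5 (median -0.40, or -0.17 without shNC replicate 1). Of the 33, 3 had a group mean under 1 TPM and needed the other group to pass the filter. SPP1 and GDF15 were the falls of smallest p; GDF15 stood at 80.8, 70.7 and 80.8 TPM with shNC against 24.5, 24.3 and 25.6 TPM with shIFI16 (log2 difference -1.60, SE 0.0807, adjusted p = 9.3e-10). IGFBP4, an IGF-binding protein, stood at 7.5, 6.65 and 5.9 TPM with shNC against 28.2, 30.1 and 24.2 TPM with shIFI16, among the larger rises of the table (log2 difference 1.89, SE 0.112, adjusted p = 5.4e-09). MMP14 was the other of the 4 members of smallest p.

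Markers of the astrocyte lineage were checked against other cell types. Of 10 astrocyte markers 4 were tested and 2 rose, GFAP and FABP7, a fatty acid binding protein of radial glia (log2 difference 0.45, SE 0.0738, adjusted p = 2.3e-04); their list summed to 169.6 to 191 TPM with shNC and 229 to 251.2 TPM in shIFI16, and 5 of 10 stayed under 1 TPM in all libraries. GFAP, which defines astrocytes, thus lay at 1.37 to 2.06 TPM in shNC, and AQP4 at 0 to 0.0174 TPM in all 6. Of 12 neuron markers 6 were tested, 3 fell and 1 rose, with a sum of 476 to 489 TPM with shNC and 430.1 to 484 TPM in shIFI16; SYT1, a synaptic vesicle calcium sensor, fell by 0.72. The immune list summed to 37.8 to 40.6 TPM with shNC and 14.2 to 18 TPM in shIFI16; 9 of its 10 members stayed under 1 TPM, 5 of them listed at 0 in all libraries, and CD68, a lysosomal glycoprotein of macrophages also found in other cells, stood at 40.2, 37.1 and 38 TPM with shNC against 16, 16.8 and 14 TPM with shIFI16 (log2 difference -1.25, SE 0.0926, adjusted p = 5.5e-08). PTPRC (CD45), which defines leukocytes, was at 0 to 0.0193 TPM over the 6 libraries.

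Epithelial markers summed to 71.6 to 77.2 TPM with shNC and 177 to 187 TPM in shIFI16, with KRT8 and its partner KRT18 (log2 difference 0.65, SE 0.0733, adjusted p = 5.7e-06) risen and CLDN4, a tight-junction claudin, fallen (log2 difference -0.47, SE 0.126, adjusted p = 0.0096), a call lost without shNC replicate 1. EPCAM and CDH1, which define epithelium, lay at 0 to 0.101 and 0 to 0.0979 TPM. Endothelial markers summed to 10.5 to 11.2 TPM with shNC and 15.6 to 19 TPM in shIFI16: CDH5, VE-cadherin, rose by 1.28, and PECAM1 lay at 0.0361 to 0.189 TPM. Of the fibroblast and pericyte list THY1 rose (0.50) and ACTA2 fell (-0.42), the latter lost without shNC replicate 1 or 2 and with no filter. CNP was the only tested oligodendrocyte marker and rose by 0.46; MBP lay at 0.0349 to 0.165 TPM. The part of other cell types in the results was not tested beyond these values.

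The table of radioresistant and control cells gave each gene a second reading in libraries that the knockdown fit did not use. There 5762 of 13127 genes (43.9%) passed the same threshold, 2220 (16.9%) higher and 3542 (27%) lower in radioresistant cells; with median-ratio scaling the split was 2932 higher and 2985 lower, and without control replicate 2 the lower genes were 2237. The median of all genes was -0.11. Over 12359 genes tested in both tables, 1996 fell after knockdown, and 546 of these (27.4%) were higher in radioresistant cells, against 16.6% of all. They were 26.6% of the 2051 genes higher in radioresistant cells. Of 2059 genes that rose after knockdown 595 (28.9%) were lower in radioresistant cells, near the 26.4% of all. Without the interferon and NF-kB lists, 463 of 1902 falls (24.3%) were higher in radioresistant cells, against 15.8% of the remaining genes. In the same direction, 491 of the 1996 falls (24.6%) were also lower in radioresistant cells, against 26.4% of all. Without the interferon and NF-kB lists these were 491 of 1902 (25.8%), against 26.7%. Of the 2059 rises 385 (18.7%) were also higher in radioresistant cells, against 16.6% of all. Only the share of falls that were higher in radioresistant cells lay well above its background. The other shares lay near theirs, and no test of the overlap was made.

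Among the largest rises, 14 were tested in the other table, where 7 were lower and 3 higher in radioresistant cells. Without the 6 genes whose shNC mean lay below 1 TPM, 9 were tested, of which 5 were lower and 0 higher. MAGEA12, which did not pass the threshold there, stayed among these 9. GFAP went from 4011 ± 112 to 80.6 ± 22.9 TPM (mean ± SD, n = 3) in control to radioresistant cells, the opposite direction to its rise after knockdown. Its levels cannot be compared across the tables, which were normalised apart. Among the largest falls, 12 were tested, of which 9 were higher and 1 lower in radioresistant cells. None of these 12 had a shIFI16 mean below 1 TPM. Among the 9 higher were PLEKHA6 and EVI2A, which needed the shNC libraries to pass the filter of the knockdown. The log2 difference, radioresistant minus control, was 2.89 for CD82 and 1.18 for GPNMB. NCEH1 and SPP1, the falls with the highest shNC levels, differed there by 0.30 and -0.29, which did not pass the threshold. BATF and LOC100131289 were listed at 0 in every library of that table. CES1 had a mean of 0 TPM in control and 0.328 TPM in radioresistant cells.

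**Figure D5:**
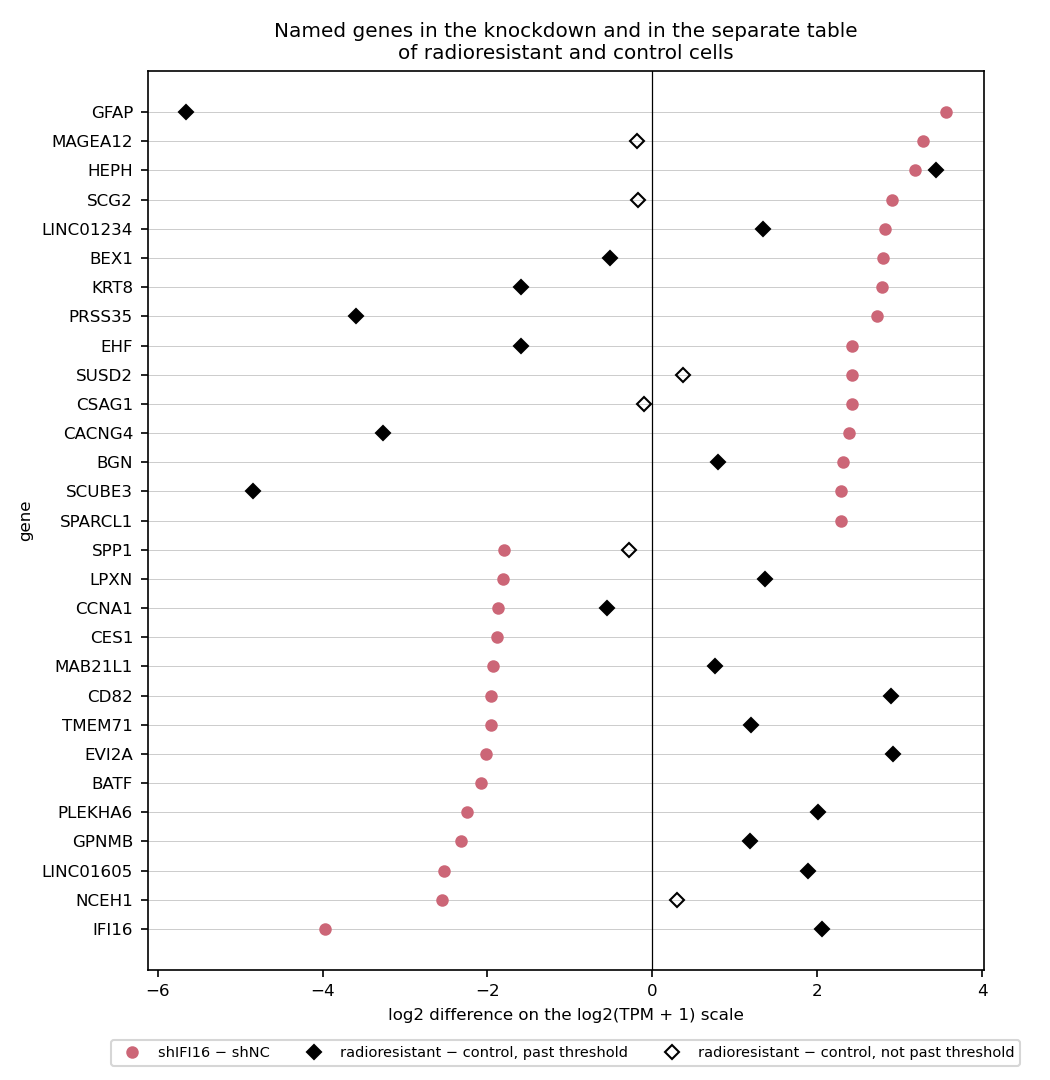
Log2 differences of IFI16 and the named genes after knockdown (red circles) and between radioresistant and control cells (black diamonds, open where the adjusted p was not under 0.05), on the log2(TPM + 1) scale and each from its own table. LOC100131289, listed at 0 in shIFI16, is left out; genes without a diamond were too low to test, and 8 of the 11 falls drawn with a diamond have a filled one to the right of 0.

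Gene lists were also read in the radioresistant table, against its background of 16.9% higher and 27% lower. The interferon list was higher in radioresistant cells in 112 of 121 tested cases and lower in 0, and immediate early genes in 17 of 22 with 1 lower, both opposite to the knockdown. Cholesterol synthesis was lower in 13 of 24 and higher in 2, fatty acid genes lower in 12 of 18 and higher in 4, again opposite. G1/S genes were higher in 14 of 44 and lower in 3, the same direction as after knockdown. NRF2 targets (18 of 33 higher, 2 lower) and YAP and TEAD targets (10 of 24 higher, 5 lower) also shared it. So did integrins, lower in 6 of 13 and higher in 2. Heat shock chaperones, mixed after knockdown, were higher in 12 of 19 and lower in 0. NF-kB targets were higher in 15 of 27 and lower in 1, opposite to the knockdown. Not every list is given. G2/M genes were higher in 8 of 44, near the background, and lower in 2. Lysosomal genes were lower in 12 of 43 and higher in 7, both near the background. Mesenchymal genes were lower in 12 of 37 and higher in 9, and MAPK feedback genes higher in 9 of 26 and lower in 8, without a common direction.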

How the data were processed

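RNA was measured by RNA-seq in 6 libraries, 3 labelled shNC and 3 labelled shIFI16. The authors deposited TPM in a table named as counts: each column summed to 1000000 and values were not whole. Per the submitters' processing notes, the build was hg38 and the tools were TopHat, featureCounts, Cufflinks 2.2.1 and Trim Galore 0.6.6. The sources used here do not name the step that made the TPM, the gene annotation or whether strand was used. Overlapping and antisense genes may therefore share reads.

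From the TPM, 28 entries whose names had become dates were removed, leaving 24461 genes. Genes that reached 1 TPM in 3 or more of 6 libraries were tested with limma 3.58.1 (trend and robust, R 4.3.3) on log2(TPM + 1), with Benjamini-Hochberg adjustment over all 12567 tested genes and a threshold of 0.05. The radioresistant and control libraries were fitted alike in their own table. Columns mapped to no sample: 0. The fit was tested on simulated data. Summaries were made with Python 3.11.15 and pandas 2.3.3.

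Members and gene lists were chosen with earlier results of these data known. Named were IFI16, the PYHIN genes, and the 15 largest rises and falls past the threshold with a 2-fold change, a mean of 2 TPM and no overlap, outside the interferon and NF-kB lists. In each list up to 4 called members of smallest p followed (2 for interferon and NF-kB). Results for some genes are not reported here and these genes are not drawn, but counts include them. Markers at or near 0, the MCM3 and PCNA promoters, TFEB, TFE3 and genes marked so were named outside this rule. RefSeq coordinates and promoters (GRCh38.p14) were matched by symbol or synonym; promoters of 39 of 44 G1/S, 36 of 44 G2/M, 32 of 47 lysosome, 18 of 25 cholesterol and 30 of 34 hypoxia genes matched. AP-1 letters (TGANTCA) were also searched, in 6.60% of all promoters, 2 of 18 MAPK feedback and 1 of 29 mesenchymal promoters. Alternatives were the pseudocount, the filter, scalings, the replicate block and each library left out.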

Additional observations from a re-analysis of the deposited data

How the results depend on the processing

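Over 13 alternatives the knockdown gave 2888 to 5610 genes past the threshold, against 4140. Leaving out a library in turn gave 2888 to 4086 in all, 1318 to 2310 higher and 1565 to 2307 lower; the low of 1318 came without shIFI16 replicate 2. In the radioresistance table it gave 3875 to 7138 in all, 1494 to 2743 higher and 2237 to 4395 lower, the low of 2237 without control replicate 2. The cause was not tested. Where a group was left with 2 libraries, the spread was pooled over both groups. A filter of 5 TPM gave 1830 higher and 1829 lower in the knockdown, no filter 1750 and 1809, a pseudocount of 0.1 TPM 2078 and 2035, median-ratio scaling 2232 and 2397, and quantile normalization 2547 and 2374.

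The libraries share replicate numbers, but the deviations of same-numbered libraries correlated at 0.215, 0.0881 and 0.0278, so the numbers were not taken as pairs, and not every library correlated best with its own number. With the replicate block the knockdown gave 5610 genes, 3001 higher and 2609 lower, and in the radioresistance comparison 5572 genes passed, 2110 higher and 3462 lower. In the lists, the block moved the rises to 13 (interferon), 10 (ferroptosis suppressors), 11 (oxidative phosphorylation), 36 (ribosomal proteins), 6 (heme and iron), 4 (lysosome), 2 (G2/M) and 1 (integrins). It moved the falls to 8 (chaperones of the endoplasmic reticulum), 6 (ribosomal proteins), 5 each (hypoxia and proneural), 2 (cholesterol synthesis) and 1 (G1/S). No other count of a list moved by over 1.5 times under the block.

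Of 169 genes chosen by the naming rule 162 stayed past the threshold under every alternative that tested them, and 0 changed direction. Lost under at least 1 were LINC01605, NRARP, CLDN4, ACTA2, HIST1H2AM, DLL3 and TUBB3. Of 46 list medians 36 kept their sign under every alternative; the 10 that did not lay between -0.03 and 0.10. TPM keeps no depth, so no interval from counting can be given, and genes under about 1 TPM were not read.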
